A study of Mus musculus with 8 samples.

Results

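The genes described here encode the SR proteins, the hnRNPs and part of the core splicing machinery, measured by RNA sequencing of whole mouse tumours of 4T1, a line of mammary carcinoma cells. They were chosen by symbol: numbered Srsf, Hnrnp, Sf3a, Sf3b and Prpf genes and every U2af gene, without pseudogenes. Earlier results of these data were known when the choice was made. The table held 56 such genes among 32098, namely 11 SR proteins, 20 hnRNPs, 9 subunits of SF3A and SF3B, 3 U2AF genes and 13 PRPF genes. The pseudogene rows Srsf3-ps, Hnrnpa1l2-ps and Hnrnpa1l2-ps2 were left out. The 4 ICI tumours (replicates 1, 2, 3 and 4) had an immune checkpoint inhibitor as their sole treatment. The 4 RI tumours (replicates 1, 2, 4 and 5) had radiation and the inhibitor. All 8 carry the genotype label WT, and all received the inhibitor, so that no tumour without it enters the comparison. The labels name neither the inhibitor, the radiation dose, the age of the animals, whether an RI tumour was itself irradiated, nor whether every tumour is from a different mouse. P-values therefore reflect only how far these samples vary, which can include technical variation. A design of 3 replicates is stated for the series, but each group lists 4, all of them used here.

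Introns are removed from pre-mRNA by the spliceosome, which assembles anew on each intron from small nuclear ribonucleoproteins (snRNPs) and many other proteins. SR proteins bind exons and usually help the machinery to recognise them, and kinases of the SRPK and CLK families phosphorylate their arginine- and serine-rich tails. The hnRNPs coat nascent RNA and often act as repressors of splice sites. U2AF recognises the end of the intron, SF3A and SF3B belong to the U2 snRNP at the branch point, and PRPF proteins serve in the U1 snRNP, the U4/U6.U5 tri-snRNP and the catalytic complex. Many SR protein and hnRNP genes also make transcripts with a retained intron or a premature stop codon, through which they limit their own expression.

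Values were FPKM, fragments per kilobase of gene scaled to the library's total. Recovered from the steps between low values, depth ran from 27013060 to 42622664 fragments per tumour. Each gene tested among the 56 rested on between 509 and 42488 fragments in a tumour. Together the 56 genes took between 1.18% and 1.48% of the fragments of an ICI tumour and between 1.04% and 1.35% of those of an RI tumour, so the groups overlapped. Tumours ICI 1 and RI 4 stood apart. The summed level of 10 neutrophil genes was 22577 FPKM in ICI 1, where the rest of the ICI group had 215 to 677. In RI 4 the 3 genes Gm55118, Rn18s-rs5 and Gm55094 took 60.7% of the summed FPKM. For 32 of the 54 genes tested ICI 1 was the lowest ICI tumour, and for 45 of 54 RI 4 was the lowest RI tumour. RI 4 was also low in general, with a median of −0.21 for all genes tested and −0.25 for these 54, as log2 deviations from the mean of the 8 tumours.

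The cell line label was checked on 10 epithelial genes, whose summed level was 993 to 2026 FPKM in ICI and 785 to 1432 in RI. In 2 of 10 every RI tumour lay below every ICI tumour. Krt8, Krt18, Krt7, Krt14, Cdh1 and Cldn3 reached 1 FPKM in at least 4 tumours, while Epcam, Krt5, Cldn4 and Cldn7 did not, and Epcam and Krt5 were at 0 in some tumours. Markers of some other cells moved with the groups. For the counts that follow, 16.7% of all genes tested were higher in every RI tumour than in any ICI tumour, and 11.2% lower. Neutrophil genes summed to 215 to 22577 FPKM in ICI and 20.2 to 81.2 in RI, with 8 of 10 lower in every RI tumour than in any ICI tumour (Ly6g and Camp were at 0 in some tumours). Fibroblast genes summed to 48.7 to 68.0 FPKM in ICI and 103 to 511 in RI, with 4 of 8 higher in every RI tumour. Skeletal muscle genes summed to 1.87 to 221 FPKM in ICI and 95.1 to 512 in RI, 0 of 5 being separated between the groups (Ckm and Myh4 at 0 in some tumours). Erythroid genes summed to 209 to 1063 FPKM in ICI and 0.465 to 103 in RI, with 5 of 5 lower in RI (Hba-a2, Hbb-bs and Hbb-bt at 0 in some). Of the other lists, 4 overlapped in their summed level. Macrophage genes ran from 349 to 447 FPKM in ICI and 339 to 831 in RI, pan-leukocyte genes from 77.5 to 442 and 87.7 to 146, T and NK cell genes from 11.7 to 32.4 and 9.91 to 21.6, and endothelial genes from 13.2 to 102 and 14.96 to 39.2. Higher in every RI tumour were 2 of 8 macrophage genes and 1 of 4 pan-leukocyte genes. Lower in every RI tumour were 1 of 4 pan-leukocyte genes and 1 of 9 T and NK cell genes. B and plasma cell genes ran from 6.10 to 41.4 FPKM in ICI and 1.62 to 5.51 in RI, with 1 of 6 lower in every RI tumour. Mitochondrially encoded genes took 4.37% to 8.14% of the fragments in ICI and 2.56% to 3.22% in RI. The part of these markers in the differences below was not tested, and in bulk tumours fewer cells of a type and less RNA per cell cannot be told apart.

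The comparison asks which of these genes differed in RI from ICI, that is, with radiation added to the inhibitor. Of the 56 genes, 54 had at least 1 FPKM in at least 4 tumours and were tested with limma on log2(FPKM + 1), together with all other genes, a gene being called at a Benjamini-Hochberg adjusted p under 0.05. Those that rose in RI included Prpf8 and Prpf38a, and Prpf39, Prpf38b, Srsf11, Srsf7, Hnrnph1 and Sf3a2 fell. In all, 3 of 54 rose and 6 of 54 fell, where 11.1% of all genes tested rose and 6.6% fell. The share called was 16.7% of the splicing genes and 17.7% of all genes, so their rate of change was near the background. The differences were small. None of the 54 reached a 2-fold change on the log2(FPKM + 1) scale, on which folds of genes with low values come out too small, and 43 lay within 1.5-fold. As a ratio of mean FPKM, RI over ICI, Prpf39 did pass 2-fold, at 0.479. The median difference, RI minus ICI, was −0.08 for the 54 genes and 0.01 for all 13439 tested, with 22 splicing genes above 0 and 32 below. In 9 genes the 4 RI values lay above all 4 ICI values and in 12 they lay below, or 16.7% and 22.2% of the 54, beside 16.7% and 11.2% of all genes tested (27.9% together). At an unadjusted p under 0.05 there were 8 of 54 higher (14.8%) and 15 lower (27.8%), beside 20.4% and 15.5% of all genes. Differences of both signs occurred in each class but U2AF, whose 2 tested genes lay below 0.

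**Figure D1:**
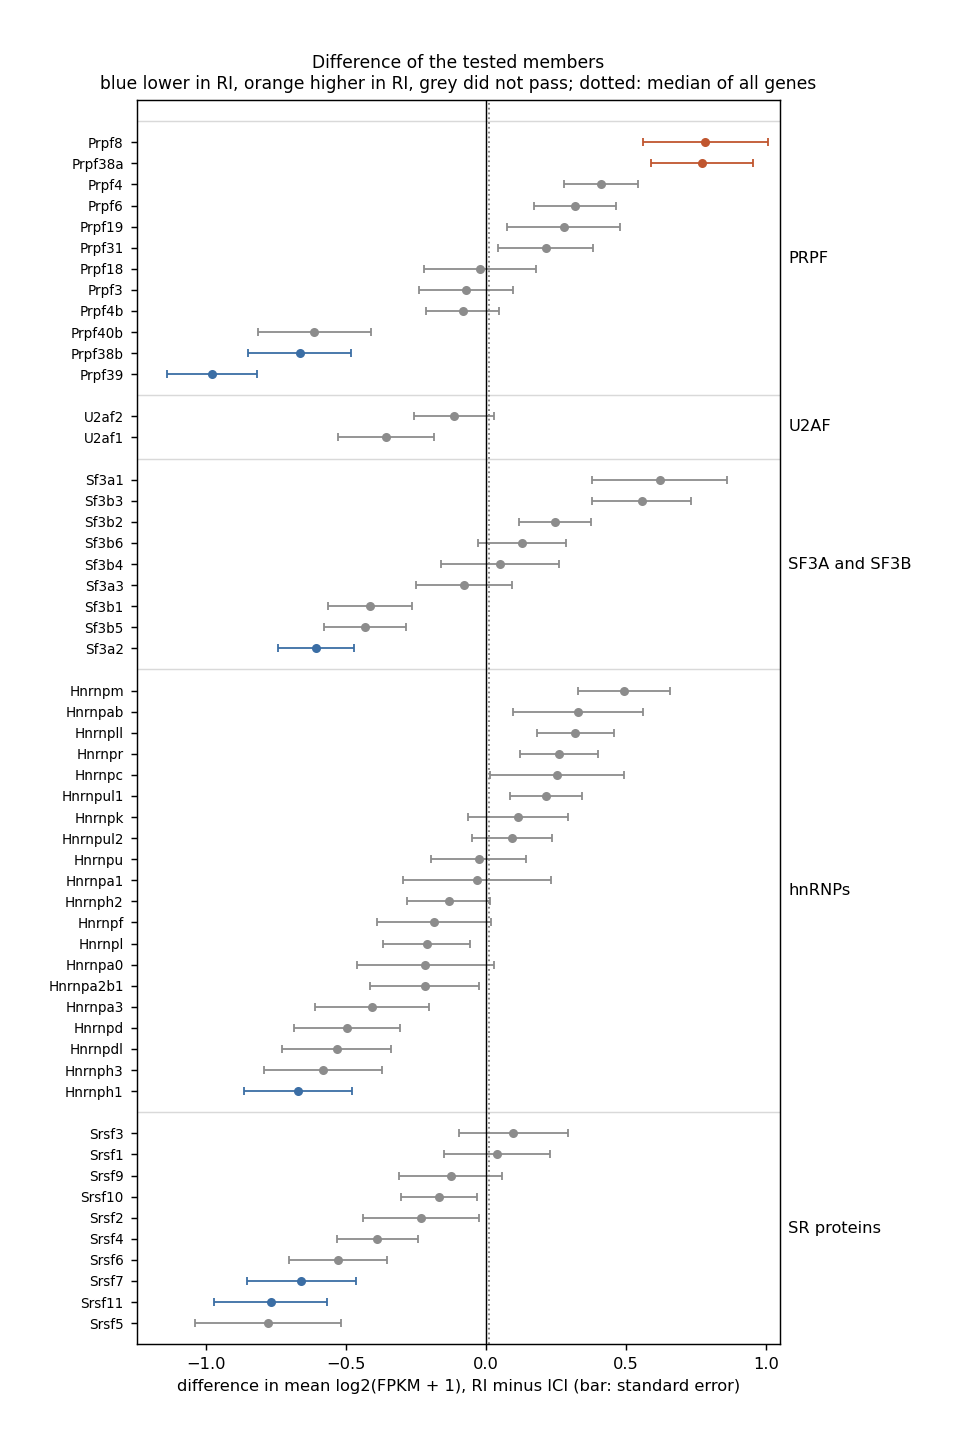
Difference in mean log2(FPKM + 1), RI minus ICI, of 53 of the 54 genes tested, by class, with its standard error as a bar and the median of all genes as a dotted line. Among SR proteins 8 of 10 lie below 0, while PRPF genes reach from −0.98 (Prpf39) to 0.78 (Prpf8).

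SR protein genes were mostly lower in RI, and 2 of 10 tested fell (20.0%, where 6.6% of all genes fell and 11.1% rose). The median difference was −0.31, with 8 of 10 below 0, 0 rises and 8 genes that did not pass. Srsf11, an SR-related protein also called p54, had 54.7, 49.3, 41.0 and 68.3 FPKM across the ICI group (in the order of replicates 1, 2, 3 and 4, as for all values below) and 33.0, 30.4, 23.0 and 36.6 across the RI group (replicates 1, 2, 4 and 5). Every RI tumour lay below every ICI tumour, and ICI 4 was the highest. The mean fell from 53.3 ± 11.5 to 30.8 ± 5.76 FPKM (SD, n = 4 each), which is −0.77 on the log2 scale (standard error 0.20, limma adjusted p = 0.0322).

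Srsf7, an SR protein that carries a zinc knuckle and shuttles between nucleus and cytoplasm, had 65.1, 88.8, 80.3 and 77.4 FPKM across the ICI group and 60.1, 58.5, 41.5 and 38.2 across the RI group. The groups did not overlap, although ICI 1 and RI 1 were close. The log2 difference was −0.66 with a standard error of 0.19 (limma adjusted p = 0.0457). Srsf5, the most abundant SR transcript here, had 216, 148, 108 and 160 FPKM in ICI and 106, 94.5, 59.3 and 104 in RI, also without overlap. Its difference of −0.78, with a standard error of 0.26, was the largest of the class, but the ICI tumours were spread over a 2-fold range and it did not pass (adjusted p = 0.0656). Srsf6 (92.8 ± 9.95 FPKM in ICI, 64.4 ± 11.1 in RI, SD, n = 4 each) was lower in all 4 RI tumours as well, with a limma adjusted p of 0.0632.

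The remaining SR genes overlapped between the groups. Srsf4 differed by −0.39 (adjusted p = 0.0881), and 43% of its exonic bases are also covered by a gene on the other strand, Gm12992, so its level is uncertain unless the counting used strand, which is not given in the sources used here. Srsf2, the protein SC35 of nuclear speckles, averaged 127 ± 25.3 FPKM in ICI and 107 ± 17.9 in RI. Srsf1 (60.6 and 62.0 FPKM), the founding member of the family, and Srsf3 (37.0 and 39.4 FPKM), its smallest, differed by less than their standard errors. Srsf9 and Srsf10 averaged 40.8 and 21.9 FPKM in ICI and 37.5 and 19.5 in RI. Srsf12 was almost silent and not tested, with 1 fragment in ICI 3, 2 in RI 4, 11 in RI 5 and 0 in the other tumours (two-sided exact permutation p = 0.429 over 70 regroupings, whose smallest possible p is 0.0286).

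**Figure D2:**
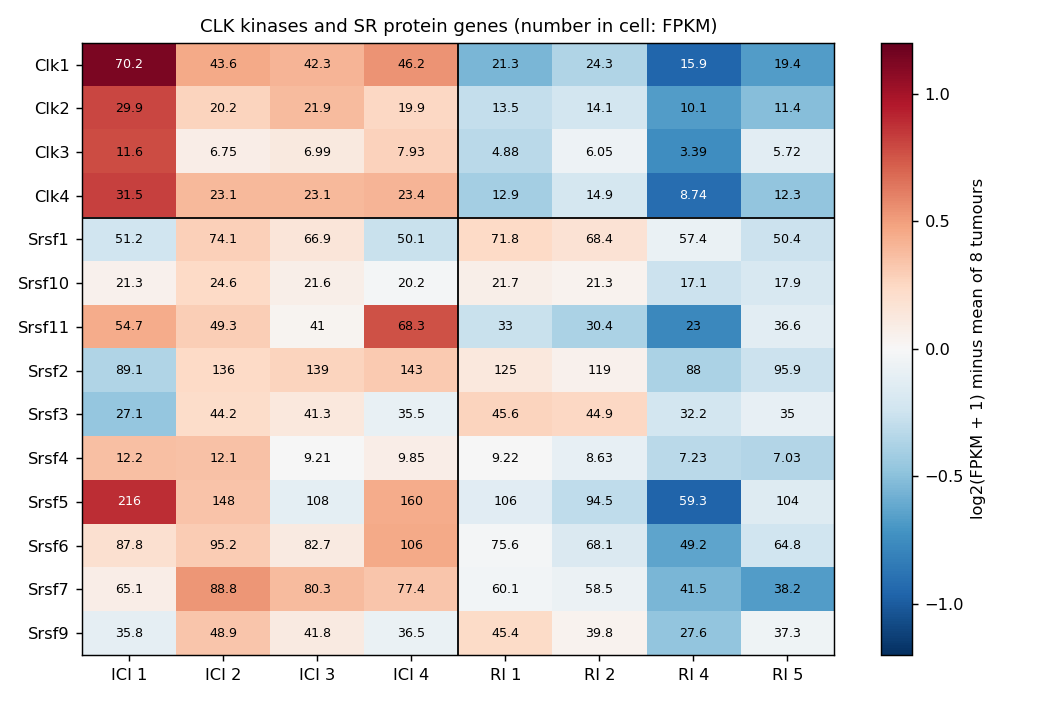
FPKM (number in each cell) of the 4 CLK kinase genes and the 10 SR protein genes tested in the 8 tumours, coloured by log2(FPKM + 1) minus the mean of the gene over the 8 tumours. Clk1 runs from 42.3 to 70.2 FPKM in ICI and from 15.9 to 24.3 in RI, and Srsf5, Srsf6, Srsf7 and Srsf11 are also lower in every RI tumour, while Srsf1 and Srsf3 are mixed.

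Some kinases of the CLK family, which act on SR proteins, fell in the same comparison. Among 8 tested genes of SR protein kinases and import, 3 fell, all of them CLK kinases, and 1 rose, an importin (37.5% and 12.5%, beside 6.6% and 11.1% of all genes), with a median difference of −0.37. Clk1, a nuclear kinase that phosphorylates SR proteins, had 70.2, 43.6, 42.3 and 46.2 FPKM across the ICI group and 21.3, 24.3, 15.9 and 19.4 across the RI group. ICI 1 was the highest and RI 4 the lowest, and the groups lay far apart. The log2 difference was −1.27 with a standard error of 0.20 (limma adjusted p = 0.0127). Clk4 went from 25.3 ± 4.17 to 12.2 ± 2.56 FPKM (difference −1.0, adjusted p = 0.0145) and Clk2 from 23.0 ± 4.68 to 12.3 ± 1.87 (−0.85, adjusted p = 0.0168; SD, n = 4 each). These 3 passed with each tumour left out in turn. With no filter on low values Clk1 passed (limma adjusted p = 0.0487), while Clk4 (0.0530) and Clk2 (0.0572) did not. As TPM, or with the replicate number as a block in the fit, none of the 3 passed. Clk3 had 8.33 ± 2.26 FPKM in ICI and 5.01 ± 1.19 in RI, lower in every RI tumour, and did not pass (adjusted p = 0.0611). The cytoplasmic kinases Srpk1 (11.6 and 10.7 FPKM) and Srpk2 (4.15 and 4.31) overlapped between the groups. Tnpo3, the importin that carries SR proteins into the nucleus, rose from 10.4 ± 2.05 to 15.9 ± 0.895 FPKM (adjusted p = 0.0330), but passed only without ICI 1 or ICI 3 when single tumours were left out, and did not pass in the length and GC correction described below (adjusted p = 0.176).

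Among hnRNP genes 1 of 20 fell, 0 rose and 19 did not pass, with a median difference of −0.08. The share that fell was 5.0%, near the 6.6% of all genes, of which 11.1% rose. Hnrnph1, which binds runs of guanines, had 125, 157, 148 and 171 FPKM across the ICI group and 114, 109, 74.7 and 81.9 across the RI group. The highest RI tumour lay just under the lowest ICI tumour. The log2 difference was −0.67 with a standard error of 0.19 (limma adjusted p = 0.0424). Its relative Hnrnph3 was lower as well (18.9 ± 2.26 and 12.6 ± 3.92 FPKM, adjusted p = 0.0800), with an overlap of 1 RI tumour, while Hnrnph2 (16.7 and 15.1) and Hnrnpf (147 and 127) differed by less than the spread between tumours.

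Hnrnpd, known as AUF1, and its relative Hnrnpdl differed by −0.50 and −0.54 and did not pass (adjusted p = 0.0927 and 0.0804). For Hnrnpd ICI 2 was high, at 40.8 FPKM, with ICI 1, 3 and 4 between 29.7 and 31.2. On the other side, Hnrnpm was higher in every RI tumour (25.9 ± 3.27 to 37.0 ± 6.35 FPKM, SD, n = 4 each) and Hnrnpll, which is known from splicing of CD45 in lymphocytes, too (6.83 ± 0.570 to 8.81 ± 1.34), with adjusted p of 0.0660 and 0.129 in limma. In Hnrnpm 14.7% of the exonic bases are shared with the neighbouring gene March2 on the same strand.

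Hnrnpa1 was the most abundant of the 54 genes per length. It had 133, 258, 293 and 239 FPKM in ICI and 258, 249, 184 and 186 in RI. ICI 1 was the lowest and ICI 3 the highest of all 8, so that the RI tumours lay inside the ICI range. The difference was −0.03 with a standard error of 0.26 (limma adjusted p = 0.943), and its sign turned under several alternatives. Copies of Hnrnpa1 elsewhere in the genome could have taken or lent fragments, so this level is uncertain. Hnrnpa0 (195 ± 49.9 and 166 ± 37.3 FPKM), Hnrnpa2b1 (125 ± 19.0 and 108 ± 21.6) and Hnrnpab (126 ± 35.6 and 153 ± 13.4) were abundant too and overlapped, with adjusted p of 0.549, 0.445 and 0.336. The other 8 hnRNP genes, among them Hnrnpk (72.0 and 77.7 FPKM), Hnrnpu (65.5 and 64.4), Hnrnpl (59.4 and 51.3) and Hnrnpc (47.4 and 54.7), overlapped between the groups.

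The subunits of SF3A and SF3B did not move together. Of 9 tested 1 fell (11.1%), 0 rose and 8 did not pass, where 6.6% of all genes fell and 11.1% rose. The median difference was 0.05. Sf3a2, the subunit SF3a66, had 40.2, 41.3, 37.2 and 38.9 FPKM in ICI and 27.7, 23.8, 22.2 and 28.7 in RI. The ICI tumours were within a narrow band and the RI tumours all lay below it. The difference was −0.61 with a standard error of 0.14 (limma adjusted p = 0.0210). Plekhj1, on the other strand, covers 16.1% of its exonic bases.

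Its partner Sf3a1 pointed the other way, with 8.84, 19.0, 22.3 and 15.3 FPKM in ICI and 24.7, 24.3, 23.9 and 25.0 in RI. All RI tumours lay above all ICI tumours, but ICI values ran over a wide range and the gene did not pass (difference 0.62, adjusted p = 0.0995). The third subunit, Sf3a3, averaged 23.1 ± 4.55 and 21.6 ± 2.12 FPKM. Within SF3B, Sf3b1, the subunit that cradles the branch point and is often mutated in human myeloid disease, was lower in every RI tumour (50.4 ± 5.82 to 37.5 ± 4.25 FPKM, adjusted p = 0.0800), and so was Sf3b5 (15.5 ± 1.63 to 11.3 ± 1.73, adjusted p = 0.0663). Sf3b3 (17.1 ± 3.93 to 25.3 ± 2.87 FPKM) was on the higher side, with an overlap of 1 tumour (adjusted p = 0.0569), and Sf3b2 (31.3 to 37.3) was higher in every RI tumour (adjusted p = 0.197; SD, n = 4 each). Sf3b4, the most abundant subunit, had 32.4, 56.5, 57.1 and 55.0 FPKM in ICI and 49.7, 49.6, 44.2 and 60.8 in RI, with ICI 1 the lowest of all 8 (difference 0.05, adjusted p = 0.885, with a sign that turned under some alternatives). Sf3b6 averaged 15.6 and 17.0 FPKM.

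Neither tested U2AF gene passed. U2af1, the small subunit that reads the AG at the end of the intron, had 39.4, 47.3, 50.3 and 50.8 FPKM in ICI and 42.4, 40.2, 27.7 and 36.3 in RI. RI 1 and RI 2 lay above ICI 1, so the groups overlapped. The difference was −0.36 with a standard error of 0.17 (limma adjusted p = 0.167). U2af2, the large subunit that binds the pyrimidine tract, had 58.5, 57.8, 60.5 and 55.4 FPKM in ICI and 59.6, 58.2, 45.5 and 52.0 in RI (adjusted p = 0.594). U2af1l4 was below the filter, with 0.0142 to 0.225 FPKM in ICI and 0 to 0.244 in RI (two-sided exact permutation p = 0.686 over 70 regroupings). Other genes cover 66.1% of its exonic bases.

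PRPF genes held 5 of the 9 calls, in both directions, with 3 rises, 2 falls and 8 genes that did not pass among 13 (23.1% and 15.4%, beside 11.1% and 6.6% of all genes). The rises numbered 0 without ICI 4, RI 1, RI 2 or RI 5. Prpf39, a component of the U1 snRNP, had 17.7, 17.0, 14.4 and 21.4 FPKM across the ICI group and 9.57, 9.10, 6.60 and 8.45 across the RI group. Even the lowest ICI tumour was well above the highest RI tumour. The mean fell from 17.6 ± 2.86 to 8.43 ± 1.31 FPKM (SD, n = 4 each), a change of −0.98 on the log2 scale (standard error 0.16, limma adjusted p = 0.0129), the largest change among the 54 genes. Prpf39 (chromosome 12, 65036333 to 65063386, GRCm38) has 11967 exonic bases, of which 5.01% are shared with Fkbp3 on the other strand.

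Prpf8, the large U5 protein at the catalytic centre of the spliceosome, had 25.2, 43.7, 54.0 and 37.6 FPKM in ICI and 62.3, 66.5, 77.9 and 63.7 in RI. The groups did not overlap, and RI 4, the lowest RI tumour for most of these genes, was the highest here. The log2 difference was 0.78 with a standard error of 0.22 (limma adjusted p = 0.0415).

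The related genes Prpf38a and Prpf38b changed in opposite directions. Prpf38a, a protein of the precatalytic complex, had 2.92, 4.85, 4.96 and 3.5 FPKM in ICI and 8.69, 7.35, 5.81 and 8.50 in RI. All RI values lay above all ICI values, and Prpf38a rose by 0.77 on the log2 scale, with a standard error of 0.18 (limma adjusted p = 0.0247). Prpf38b had 40.5, 35.9, 26.2 and 44.0 FPKM in ICI and 24.2, 25.3, 18.9 and 21.4 in RI. ICI 3 was close to RI 2, and the gene fell by 0.67 on the log2 scale with a standard error of 0.18 (adjusted p = 0.0375). Prpf40b, of the U1 snRNP, had 11.1, 7.81, 6.48 and 6.45 FPKM in ICI and 6.0, 5.34, 3.41 and 4.56 in RI. Each RI tumour was lower than each ICI tumour, but it did not pass (difference −0.61, adjusted p = 0.0633).

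The other PRPF genes did not pass. Prpf4 (4.93 ± 0.442 and 6.91 ± 0.908 FPKM, SD, n = 4 each), of the tri-snRNP, was higher in every RI tumour (adjusted p = 0.0590 in limma), and so was Prpf6 (17.7 ± 1.65 and 22.4 ± 3.37, adjusted p = 0.153). Prpf3 (11.4 and 10.7 FPKM), Prpf31 (8.51 and 9.96) and Prpf4b, a kinase of the tri-snRNP (adjusted p = 0.673), overlapped between the groups. Prpf19, the ubiquitin ligase of the catalytic complex, averaged 16.1 ± 4.30 and 19.1 ± 0.907 FPKM, with 9.70 FPKM in ICI 1 alone. Prpf18, of the second catalytic step, averaged 7.04 ± 2.29 and 6.78 ± 1.18 FPKM, with ICI 1 at 10.5.

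**Figure D3:**
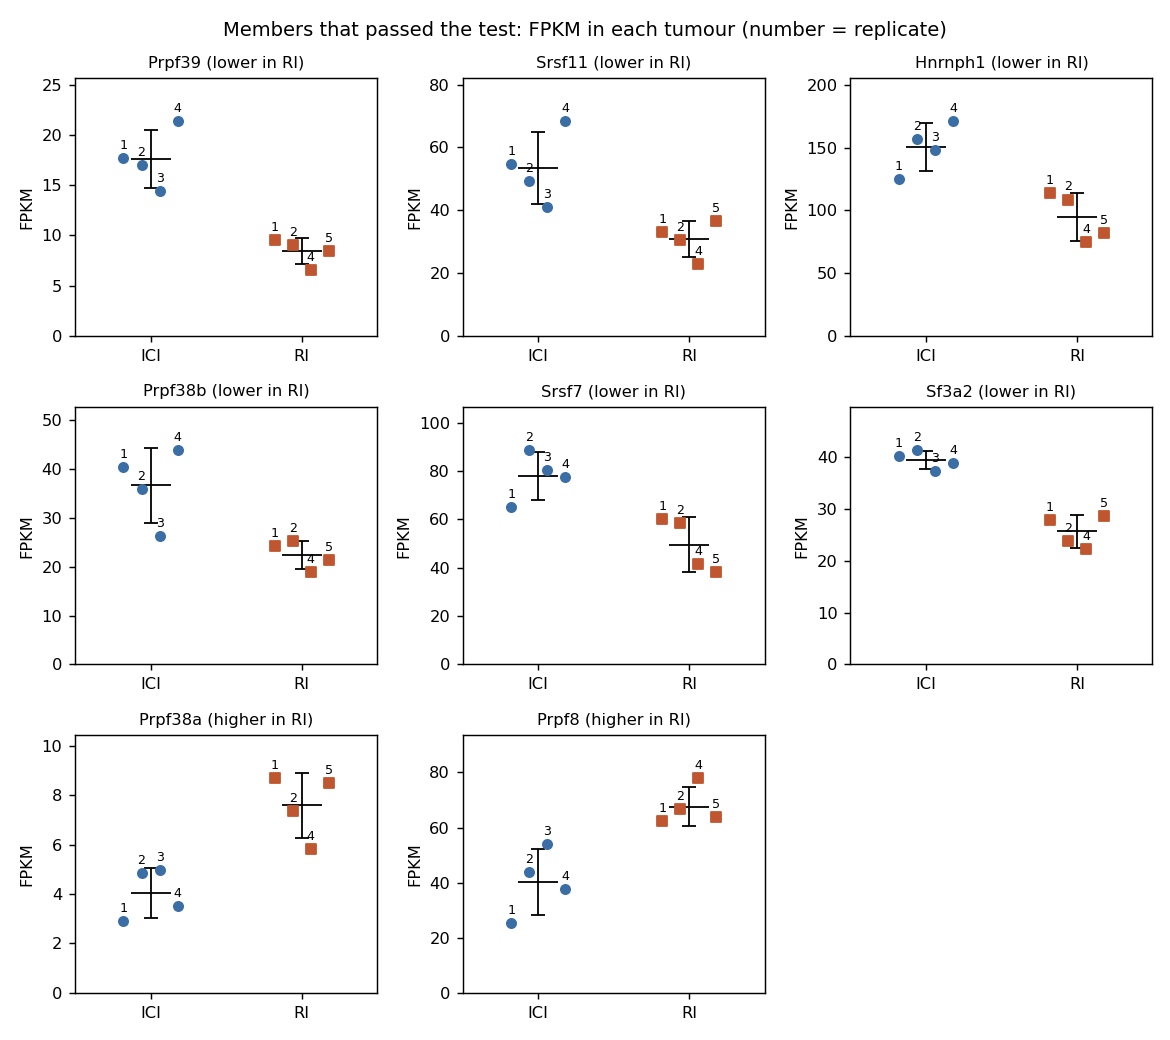
FPKM of 8 of the 9 genes that passed, in each of the 4 ICI (circles) and 4 RI tumours (squares), numbered by replicate, with mean and SD. In every panel the 4 RI tumours lie on one side of the 4 ICI tumours, and among the falls the lowest ICI value is farthest above the highest RI value, as a ratio, for Prpf39 (14.4 and 9.57 FPKM) and Sf3a2 (37.2 and 28.7).

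How firmly these calls held differed between genes. Prpf39 passed with each of the 8 tumours left out in turn (adjusted p of at most 0.0483 in limma). Sf3a2 passed in 6 of these fits, losing its call without ICI 4 or RI 2, and Prpf38a in 4, losing it without ICI 4, RI 1, RI 2 or RI 5. Prpf8, Prpf38b and Srsf11 passed only without ICI 1 or ICI 3, and Srsf7 and Hnrnph1 only without ICI 1. The adjusted p of the 9 called genes was at most 0.118 in these fits, and no difference changed sign. Without ICI 1, in which the neutrophil genes were high, all 9 passed, and the counts were 3 rises and 8 falls (11.7% and 8.29% of all genes rose and fell). Without both ICI 1 and RI 4 they were 5 and 7 (15.2% and 7.88% of all genes), and Prpf38b and Srsf11 were not among them. There were 3 rises and 2 falls without ICI 2 (8.33% and 3.91% of all genes) and 2 and 5 without ICI 3 (10.7% and 4.74%). Without RI 4 there were 2 and 2 (8.85% and 3.37%), and without RI 2 there were 0 and 1 (3.04% and 1.96%). The counts were 0 and 2 without RI 1 (4.15% and 3.28%) and also without RI 5 (4.77% and 2.80%). Without ICI 4 only Prpf39 remained, when 336 of all genes passed against 2373 (1.81% rose and 0.692% fell).

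The counts also moved with the scaling. As TPM, where the 3 genes named above take most of RI 4, the median of all genes shifted to 0.11 and that of the 54 to 0.01, and 0 rose and 0 fell. Of the lists of other splicing genes described below and the SR protein kinases, 1 regulator rose and 0 genes fell as TPM. With median centring 3 rose and 15 fell, where 11.2% and 12.1% of all genes did (23.2% called), and 48.0% of all calls were rises against 62.6% as deposited. With upper-quartile scaling 4 rose and 13 fell (13.2% and 11.5% of all genes, 24.7% called) and with quantile normalization 5 and 12 (13.5% and 10.5%, 23.9%). Weighting the tumours by their fit gave 9 and 10 (20.3% and 11.8%, 32.1%), and voom on the recovered fragments 3 and 8 (12.3% and 7.04%, 19.4%). Prpf8 did not pass with median centring or upper-quartile scaling, while the 6 falls passed in all 5 of these fits.

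Over all genes the difference followed exon length (Spearman rho 0.363 across 13330 genes, which are not independent). Among the 54 splicing genes rho was 0.24, as a description. Their median exon length was 5550 bases against 3768 for all genes. Genes that rose had a median of 6122 bases and genes that fell 1791 over all genes tested, whereas the 6 splicing genes that fell ran from 2658 (Sf3a2) to 11967 bases (Prpf39), while Prpf38a has 5298 and Prpf8 7461. Once the trends on length and on GC content had been taken out of each library, 1 of the 54 rose and 14 fell, where 10.8% of all genes rose and 9.24% fell (20.0% called), and the median difference was −0.18. Prpf38a (adjusted p = 0.0130) and the 6 falls passed, while Prpf8 (difference 0.56, adjusted p = 0.109) did not. Falls that passed here and not as deposited were Srsf6, Srsf10, Hnrnpa3, Hnrnpd, Hnrnpdl, Sf3b1, Sf3b5 and Prpf40b.

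**Figure D4:**
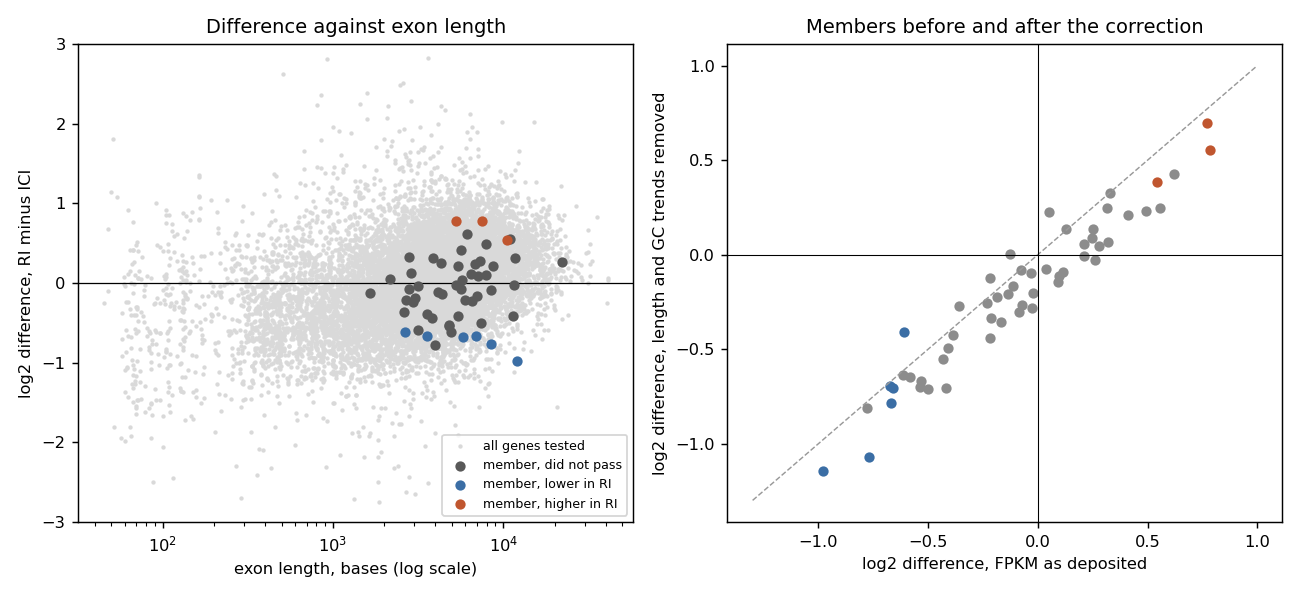
Left, log2 difference (RI minus ICI) against exon length on a log axis for all genes tested (light points) and the 54 splicing genes (dark and coloured), with 23 genes beyond 3 in either direction not drawn. Right, the difference of the 54 genes as deposited against that with the trends taken out, where 48 of 54 points lie under the dashed line of equality.

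The annotation lists many unproductive transcripts for these genes. In GENCODE M21, 29 of the 54 (53.7%) have a transcript of the nonsense-mediated decay class and 40 (74.1%) one with a retained intron, beside 24.5% and 50.8% of all genes tested with a known length. Of the 32 genes with a difference below 0, 22 had a nonsense-mediated decay transcript and 22 a retained intron transcript. Of the 22 above 0 these were 7 and 18. Among the 6 that fell, Srsf11, Srsf7, Prpf39 and Prpf38b carry the decay class, and Hnrnph1 and Sf3a2 do not. An FPKM per gene sums productive and unproductive transcripts, so these files do not show which of them changed.

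Promoter sequences are shown for 5 of the 9 called genes, 3 that fell and 2 that rose, to set genes with opposite changes side by side. Each run is the 250 bases before the start of the gene in RefSeq (GRCm38.p6), 5′ to 3′ on the gene's strand, with matches to any motif searched in capitals.
Prpf39 (chr12:65036084-65036333, plus strand): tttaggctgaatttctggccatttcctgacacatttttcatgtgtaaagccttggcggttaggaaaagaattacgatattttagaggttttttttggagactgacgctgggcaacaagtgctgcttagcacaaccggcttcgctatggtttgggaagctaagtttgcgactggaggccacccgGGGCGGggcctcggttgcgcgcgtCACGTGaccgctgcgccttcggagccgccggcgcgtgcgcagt
Srsf7 (chr17:80207306-80207555, minus strand): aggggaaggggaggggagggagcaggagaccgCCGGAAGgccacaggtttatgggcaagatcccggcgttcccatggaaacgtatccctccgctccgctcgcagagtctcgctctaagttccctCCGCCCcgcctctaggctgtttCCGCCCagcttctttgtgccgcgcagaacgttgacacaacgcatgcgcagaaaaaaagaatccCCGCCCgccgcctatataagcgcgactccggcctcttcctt
Sf3a2 (chr10:80798485-80798734, plus strand): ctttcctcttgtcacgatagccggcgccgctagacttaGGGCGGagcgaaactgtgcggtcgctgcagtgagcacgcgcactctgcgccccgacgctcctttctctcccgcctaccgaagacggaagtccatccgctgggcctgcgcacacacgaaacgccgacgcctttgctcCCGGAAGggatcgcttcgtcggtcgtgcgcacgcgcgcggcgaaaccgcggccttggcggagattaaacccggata
Prpf8 (chr11:75486527-75486776, plus strand): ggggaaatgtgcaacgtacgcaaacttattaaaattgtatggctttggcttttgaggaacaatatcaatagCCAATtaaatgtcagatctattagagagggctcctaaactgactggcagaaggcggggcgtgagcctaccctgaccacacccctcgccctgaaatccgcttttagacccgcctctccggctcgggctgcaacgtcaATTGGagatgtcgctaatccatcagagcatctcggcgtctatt
Prpf38a (chr4:108579337-108579586, minus strand): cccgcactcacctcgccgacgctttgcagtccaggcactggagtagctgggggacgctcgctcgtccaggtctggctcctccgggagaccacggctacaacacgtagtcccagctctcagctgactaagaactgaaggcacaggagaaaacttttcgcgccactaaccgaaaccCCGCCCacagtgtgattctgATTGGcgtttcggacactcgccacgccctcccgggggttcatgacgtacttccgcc
Windows were found for 49 of the 56 genes. The 5 motifs searched, on both strands, were ETS (CCGGAAG), SP/KLF (GGGCGG), NF-Y (CCAAT), CRE (TGACGTCA) and E-box (CACGTG), none of which holds another. An ETS match was in 3 of 6 genes that fell, 0 of 2 that rose and 15 of all 49 (30.6%), beside 7.83% of 27025 genes with a window. SP/KLF matches were in 6 of 6, 1 of 2 and 35 of 49 (71.4%), beside 35.4%, and NF-Y matches in 2 of 6, 2 of 2 and 25 of 49 (51.0%), beside 37.5%. The E-box was in 6 of 49 (12.2%), beside 6.86%, and CRE in 0 of 49, beside 1.77%. The windows of the 49 genes had a median GC content of 61.6% against 52.4% for all windows. The 27025 genes were not limited to those tested here, so the shares are not set against expressed genes alone. A gene counted if any of its windows matched, with 66 windows for the 49 genes and 32851 for the 27025. A match is a description of the letters, not a bound site.

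The other splicing genes gave the surroundings of these changes. Of 26 tested snRNP proteins 7 fell and 1 rose (26.9% and 3.85%, beside 6.6% and 11.1% of all genes), with a median difference of −0.39. The falls numbered 0 without ICI 4, 1 without RI 2, 2 without RI 5, 3 without ICI 2 or RI 1, 4 without RI 4, 5 without ICI 3, 10 without ICI 1 and 0 with no filter on low values. Falls included the Sm ring proteins Snrpf (73.3 ± 15.3 to 36.3 ± 5.79 FPKM, limma adjusted p = 0.0166), Snrpd1 (44.6 ± 7.26 to 24.2 ± 4.99, adjusted p = 0.0194), Snrpd2 and Snrpg, besides Lsm7, Snrnp48 and Snrpa. With length and GC corrected, 2 of 26 rose and 10 fell, where 10.8% of all genes rose and 9.24% fell. Snrnp200, the large U5 helicase that works beside Prpf8, rose from 15.1 ± 2.60 to 24.7 ± 1.15 FPKM (adjusted p = 0.0183; SD, n = 4 each). Snrpb, the most abundant of the list, was higher in every RI tumour (55.8 and 93.1 FPKM) without passing (adjusted p = 0.0688).

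Of 42 other spliceosome factors tested 5 rose and 2 fell (11.9% and 4.76%), near the 11.1% and 6.6% of all genes, with a median of −0.05. No call was left without ICI 4, RI 1, RI 2 or RI 5, or with no filter, and 2 rose and 1 fell without ICI 2. Cdc5l, a partner of Prpf19, rose from 12.0 ± 3.91 to 21.5 ± 0.846 FPKM (SD, n = 4 each; limma adjusted p = 0.0305), Snw1 from 4.49 to 8.50 (adjusted p = 0.0228) and Aqr, a helicase, from 4.04 to 5.97 (adjusted p = 0.0314). The other rises were Eftud2, the U5 GTPase, and Usp39, and the falls were Zrsr2, which recognises minor introns, and Syf2. Ddx5, the most abundant, averaged 153 FPKM in both groups. With length and GC corrected, 3 rose and 9 fell (10.8% and 9.24% of all genes did).

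Among 42 tested other splicing regulators 5 rose and 8 fell (11.9% and 19.0%, beside 11.1% and 6.6% of all genes), with a median of −0.15. The falls numbered 0 without ICI 4 or with no filter, 2 without RI 2 or RI 5, 3 without ICI 2 or RI 4, 4 without RI 1 and 8 without ICI 1 or ICI 3, and the rises 2 without ICI 4 or with no filter, 3 without RI 2 and 4 or 5 without any other tumour. Rbfox2, a regulator of epithelial and mesenchymal exon programmes, had 6.27, 9.12, 10.4 and 8.05 FPKM in ICI and 20.1, 17.6, 16.6 and 17.4 in RI. The RI tumours lay far above the ICI tumours, and the difference of 1.02 (limma adjusted p = 0.0126) passed with each tumour left out. With the replicate number as a block in the fit, 0 genes of this list rose and 0 fell, so Rbfox2 did not pass there. Mbnl3, of the muscleblind family, rose from 0.93 to 2.93 FPKM (adjusted p = 0.0129) and Celf1 from 13.1 to 24.3 (adjusted p = 0.0153), and Ptbp3 and Qki rose too. The ICI mean of Mbnl3 lay under the 1 FPKM of the filter, so that gene may have been tested only through its RI values. Falls were Rbm39, Ewsr1, Tial1, Luc7l3, Esrp2, which acts in epithelial exon programmes, Rbm25, Rbm5 and Ptbp2. The most abundant, Pcbp1 (171 and 145 FPKM), did not pass. With length and GC corrected, 5 rose and 18 fell (10.8% and 9.24% of all genes did). Of 16 genes of the exon junction complex and nonsense-mediated decay 3 fell (18.8%, beside 6.6% of all genes) and 0 rose (beside 11.1%). With a tumour left out 1 to 3 fell, fewest without ICI 4, and 0 fell with no filter. The falls were Magohb (13.7 to 6.62 FPKM, limma adjusted p = 0.0152), Magoh (59.5 to 29.7, adjusted p = 0.0166) and Upf3b (13.9 to 7.98, adjusted p = 0.0428). Since Magoh and Magohb are close copies in sequence, fragments may have been split between them. Eif4a3, the helicase of the complex, averaged 59.2 and 53.7 FPKM.

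**Figure D5:**
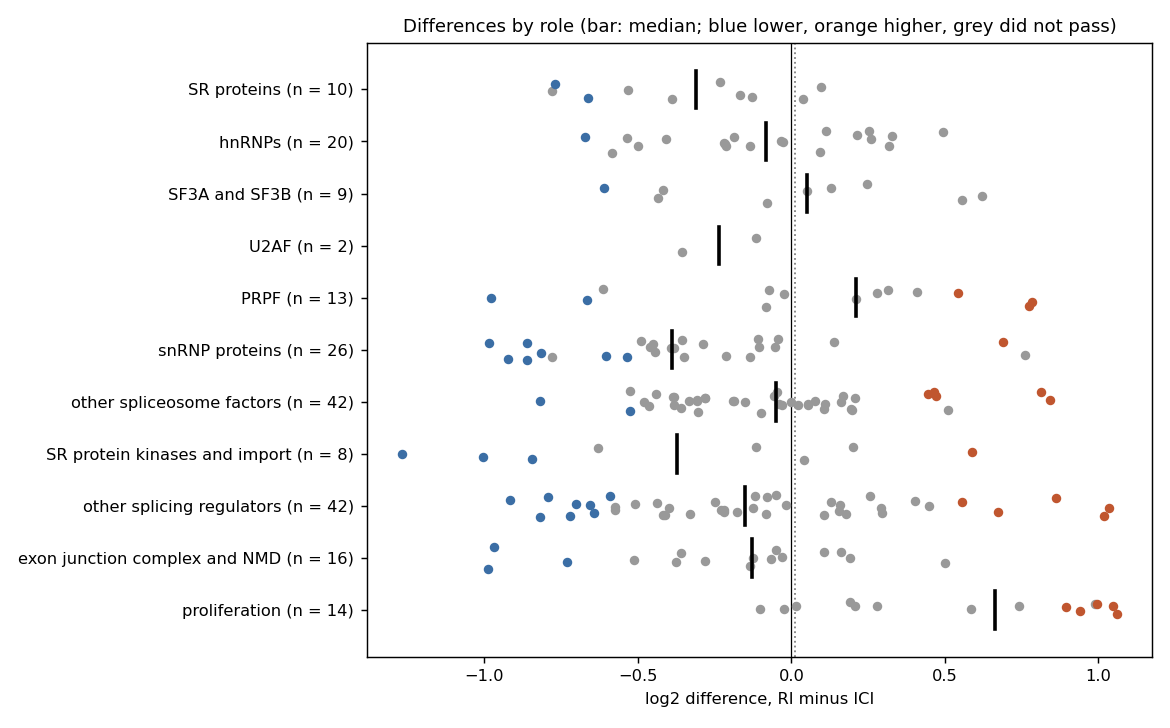
Log2 difference (RI minus ICI) of each tested gene by role, with the median of each list as a bar and that of all genes as a dotted line. The snRNP proteins and the SR protein kinases have medians of −0.39 and −0.37, while PRPF genes have 0.21 and the proliferation genes 0.66.

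Proliferation genes were on the higher side in RI, with 5 of 14 called higher (35.7%, beside 11.1% of all genes) and 0 lower and a summed level of 278 to 538 FPKM in ICI and 549 to 644 in RI. None of the 14 passed without ICI 4, RI 1, RI 2, RI 4 or RI 5, with no filter or as TPM. Their part in the splicing genes' differences was not tested.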

How the data were processed

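RNA from 8 tumours was sequenced, and the authors deposited 1 table of FPKM. HISAT2 and GRCm38 (mm10) are named, without version, per the submitters' processing notes. Counting program, strand setting, annotation and filters: not given in the sources used here. Groups come from the sample titles. Of 32098 rows 31407 matched GENCODE M21 by identifier, which gave coordinates, exon length and GC content. Between 98.7% and 98.8% of low values (up to 50 fragments) lay within 0.05 of whole fragments. No 2 libraries were alike within counting noise. Genes with at least 1 FPKM in 4 tumours (13439) were tested on log2(FPKM + 1) with limma 3.58.1 (R 4.3.3, trend and robust variance). Tests were two-sided, with Benjamini-Hochberg adjustment over all of these genes. The fit was also run on simulated data with independent normal noise and no outlying tumour. That run cannot show how tumours such as ICI 1 and RI 4 affect the calls. Trends on length and GC were removed per library by lowess (span 0.3). Members and lists were chosen with earlier results of these data known. In each class up to 5 called genes, the most abundant gene and, with no call, the gene with the smallest p have all 8 values; from each list the 3 genes with the smallest p and the most abundant are described, and further called genes are named to account for the counts. A result for 1 gene is not reported here, although counts of members include it.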

Additional observations from a re-analysis of the deposited data

Results flagged for a closer look

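In 6 of the 108 groups of 4 tumours (54 genes, ICI and RI) 1 tumour lay far from the other 3 on the log2(FPKM + 1) scale by Dixon's test, where chance flags about 1 in 20. In 5 of them that tumour was ICI 1. Srsf2 (89.1 FPKM), Sf3b4 (32.4), Prpf6 (15.2) and Prpf19 (9.70) were low there, and Prpf18 (10.5) was high. The other was Hnrnpd in ICI 2, at 40.8 FPKM.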

How the results depend on the processing

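Over 27 genes followed through 24 alternatives each (648 values), 493 kept direction and side of the threshold, 55 passed only in the alternative, 87 lost the call and 13 changed sign. Only the 9 genes called as reported could lose a call, so all 87 losses fall on them. Genes that passed in neither fit and kept their sign count among the 493. The 3 rises, 6 falls and 2373 calls over all genes became 0, 1 and 241 without a filter on low values, and 0, 0 and 280 as TPM. Quantile normalization gave 5 rises and 12 falls, upper-quartile scaling 13 falls, median centring 15 falls, array weights 9, 10 and 4319, and the length and GC correction 1 rise and 14 falls. Without both ICI 1 and RI 4 there were 5 rises. Leaving out 1 tumour gave 0 to 3 rises, 1 to 8 falls and 336 to 2693 calls, the fewest without ICI 4 and the most without ICI 1. Correlations between tumours of the same number, taken on deviations from the group means, were −0.0923, −0.120 and −0.124. Those of unlike number ran from −0.152 (ICI 3 and RI 5) to 0.205 (ICI 3 and RI 4). The labels do not say whether equal numbers share a batch, and these few values cannot decide whether the numbers pair the tumours. The fit with the replicate block gave 0 rises, 0 falls and 22 calls, and 0, 0 and 2 with length and GC corrected as well. Hnrnpa1 changed sign as TPM (0.0599), with quantile normalization (0.33), with the replicate block (0.17; 0.11 with length and GC corrected) and in single-tumour omissions (−0.28 to 0.10). Sf3b4 did so with array weights (−0.12), without both ICI 1 and RI 4 (−0.0793) and in single-tumour omissions (−0.14 to 0.12). The cause of these shifts was not tested.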
